A study of Rattus norvegicus with 9 samples.

Results

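The Nr4a family of orphan nuclear receptors, made up of Nr4a1, Nr4a2 and Nr4a3, was followed in rat cortical neurons that had been silenced with tetrodotoxin (TTX) and then allowed to fire again. Every probe to which the array files give 1 of these 3 gene names was taken. This gave 5 of the 41012 probes, 1 each for Nr4a1 and Nr4a2 and 3 for Nr4a3, and 3 of the 25785 genes or other features tested. All 5 passed the filter on dim probes, stood well above background on all 9 arrays and were saturated on none.

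Nr4a receptors are transcription factors whose ligand-binding pocket is closed, so their activity is set mainly by how much of them a cell makes. In neurons their genes are immediate early genes: calcium entry during firing switches them on through transcription factors already present, such as CREB and MEF2, without new protein synthesis. The proteins bind DNA alone at the NBRE element, and Nr4a1 and Nr4a2 also bind as partners of the retinoid X receptors. They are known for roles in memory, in synapse number and, for Nr4a2, in the making and upkeep of midbrain dopamine neurons.

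Messenger RNA was measured on 9 arrays, 3 in each of 3 groups, from cultures of dissociated cortex of prenatal rat pups that were 11 to 15 days old in culture and that the labels call mature neurons. The TTX group was in TTX, a blocker of the sodium channels that carry action potentials, for 48 h. The W15 and W45 groups had the same 48 h of TTX, were washed free of it with 3 washes of regular medium, and were collected 15 min or 45 min later. All 9 samples thus shared the 48 h of silencing, and the labels mention no wash of the TTX group, so the return of firing and the washing cannot be told apart. The question put to these samples is which genes a return of activity induces, and how soon. The labels do not say whether the replicates came from separate cultures, so each p-value measures only the spread between these samples, which may be technical.

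The arrays lay on 3 slides. Slide 1 carried 1 array of each group (replicate 1 of TTX, 3 of W15 and 1 of W45), slide 2 the remaining TTX arrays, and slide 3 the remaining 4 arrays of W15 and W45. W15 and W45 were spread alike over slides, whereas TTX was partly confounded with slide. Between 72.4% and 77.9% of probes stood well above background on each array, and the number of arrays limits the precision. Of the defining markers fixed for each cell type, 10 of 10 neuronal, 7 of 7 astrocyte and 6 of 6 oligodendrocyte genes were above background. So were 4 of 7 microglial genes, 2 of 5 endothelial genes (Cldn5 and Vwf) and 5 of 6 genes of dopamine neurons. Those not above background were Aif1, Itgam and Cx3cr1 of microglia, Pecam1, Flt1 and Tek of endothelial cells, and Slc6a3 of dopamine neurons. Glial marker genes were thus measured beside neuronal ones in these cultures.

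The promoters are shown because their genes carry the response described here. The bases are the 250 that precede the annotated start of transcription, from the RefSeq table of assembly GRCr8, which held 2 of the 3 members. Nr4a1 is at chr7:134259888-134260137 on the plus strand and Nr4a2 at chr3:62104888-62105137 on the minus strand. The start that the table uses lies 13 kb inside the RefSeq span of Nr4a1 and 11 kb inside that of Nr4a2, so other starts exist upstream. Capitals mark the CRE half-site, CGTCA or its complement TGACG, the short form of the sequence that CREB binds.
Nr4a1: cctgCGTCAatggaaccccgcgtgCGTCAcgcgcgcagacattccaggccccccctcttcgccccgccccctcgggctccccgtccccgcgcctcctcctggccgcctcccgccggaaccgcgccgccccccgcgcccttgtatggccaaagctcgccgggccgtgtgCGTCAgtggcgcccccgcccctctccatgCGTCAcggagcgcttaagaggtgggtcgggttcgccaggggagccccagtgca
Nr4a2: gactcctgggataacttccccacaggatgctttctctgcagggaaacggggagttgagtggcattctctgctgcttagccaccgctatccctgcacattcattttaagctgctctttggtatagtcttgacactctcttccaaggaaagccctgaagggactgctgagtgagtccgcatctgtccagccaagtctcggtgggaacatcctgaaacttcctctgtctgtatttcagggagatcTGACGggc

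The Nr4a1 window held 4 half-sites, at bases 246 to 242, 226 to 222, 82 to 78 and 53 to 49 before the start. At least 1 half-site was present in 18.2% of the 33469 rat promoter windows searched on both strands, and 4 or more in 58 of them, or 0.173%. The Nr4a2 window held 1, at bases 8 to 4 before the start. The Nr4a1 window was also rich in G and C, with 74.8% GC and 32 CpG pairs, a number reached by 4.13% of windows. The Nr4a2 window, with 52% GC and 5 CpG pairs, was near the median window, which had 51.2% GC and 5 pairs. Neither held the full CRE TGACGTCA (1.59% of windows), the NBRE AAAGGTCA (1.24%), a MEF2-like motif, CTA and TAG with 4 bases of any kind between (3.41%), TATAAA (12.9%) or, on either strand, a CArG box, the site of serum response factor (1.5%). The full CRE contains the half-site, and these letters are a description of the windows and not of binding. Which start of each gene gave the RNA measured here was not tested, so the values hold for these windows only.

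The probes are shown because the 3 probes of Nr4a3 gave different readings. Each is a stretch of 30 of the probe's 60 bases, with ATTTA, the core of AU-rich elements of unstable mRNAs, in capitals; 7.61% of all 41012 probes hold it somewhere.
Nr4a1 NM_024388: gaaggtgattgacagattctgATTTAtatt
Nr4a2 NM_019328: acaaaattgtaaattgtcttaaagaccatg
Nr4a3 NM_017352: gggttctcctgcATTTAgatagctctacaa
Nr4a3 NM_031628: tggccgttttgctaagactcaaactttgaa
Nr4a3 DQ268830: gtcttccatagttatcacaactatgagagc

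On build rn3, per the array files, the Nr4a1 probe is at chr7:140096879-140096938 on the plus strand and the Nr4a2 probe at chr3:38763393-38763452 on the minus strand. The Nr4a3 probes are on the plus strand of chromosome 5, at chr5:64732396-64732455 for NM_017352, chr5:64758249-64758308 for NM_031628 and chr5:64759221-64759280 for DQ268830. The files describe NM_031628 as transcript variant 1 of Nr4a3 and NM_017352 as transcript variant 2. The probes of NM_031628 and DQ268830 start 972 bases apart, whereas the probe of NM_017352 starts 25.9 kb (25853 bases) before that of NM_031628. Which exon or untranslated region each probe reads was not analysed here.

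Nr4a1 and Nr4a2 rose within 45 min of washout, Nr4a1 by 18.4-fold and Nr4a2 by 3.45-fold over TTX, and neither was called higher at 15 min. Nr4a3 depended on the probe: its brightest probe was 1.62-fold above TTX at 45 min and did not pass the test, while the probe of transcript variant 1 rose 2.83-fold. The probe of transcript variant 2 was 3.33-fold above TTX at 15 min and 8.42-fold at 45 min. Its intervals were wide and neither difference passed the test. The values below are the scanner's processed signals before scaling, and the log2 level, which is that signal minus the array's 75th percentile on the log2 scale. A gene was called where limma's Benjamini-Hochberg adjusted p was under 0.05 over all genes tested. By that rule 2 of the 3 members rose from TTX to 45 min, against 47 genes or 0.182% of all genes. From 15 to 45 min 2 of 3 rose, against 31 genes or 0.12%. With the replicate number as a block, Nr4a2 was not called from 15 to 45 min (limma adjusted p = 0.101). No member fell in any comparison, where 0.0194% (5 genes) and 0.0116% (3 genes) of all genes did; without W45 replicate 1 these would be 92 and 128 genes. In these cultures of mixed cells, more cells expressing a gene and more RNA per cell cannot be told apart.

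**Figure D1:**
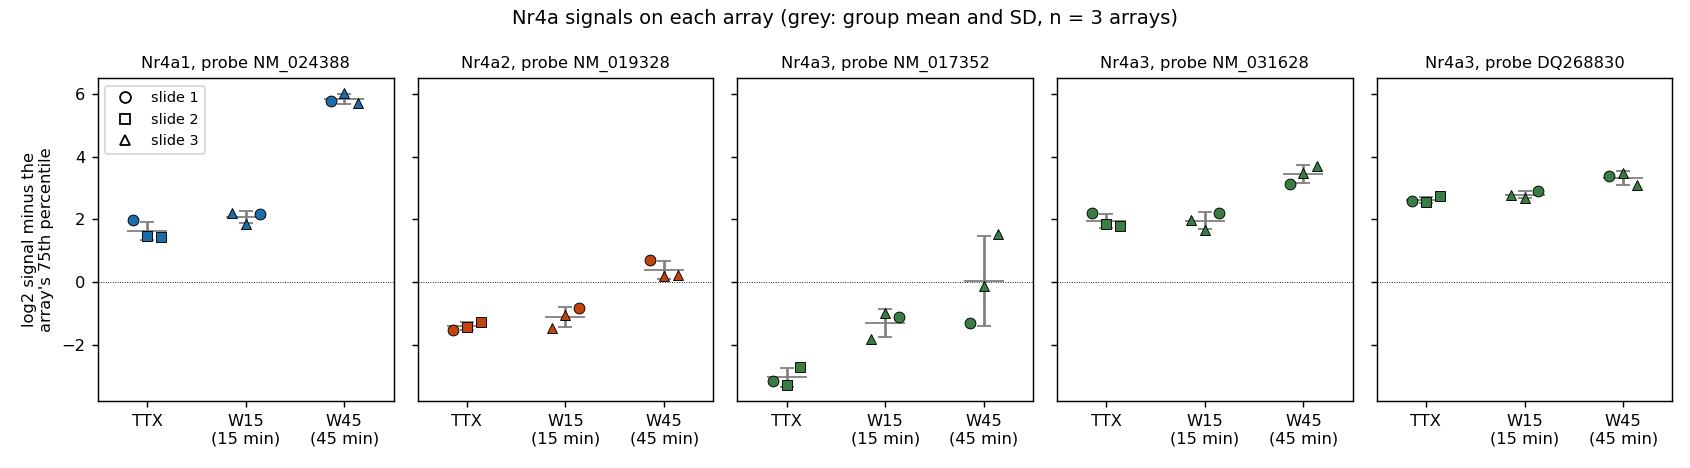
Level of each of the 5 Nr4a probes on each array, as log2 signal minus the array's 75th percentile, in the TTX, W15 and W45 groups. Each point is an array, its shape gives the slide, and grey lines are the group mean and SD (n = 3). The 3 W45 points of Nr4a1 lie between 5.70 and 6.02, far above its other 6, and those of NM_017352 spread from -1.31 to 1.53.

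Nr4a1, also known as Nur77, is the member most often used as a marker of recent activity. Its signal in TTX was 6666, 4767 and 6316 on replicates 1, 2 and 3. At 15 min it was 6997, 5845 and 8109, and at 45 min 93324, 94632 and 82015. The 45 min arrays thus stood far above every other array, while the 15 min and TTX arrays overlapped. The mean log2 level was 1.63 ± 0.30 (SD, n = 3) in TTX, 2.08 ± 0.19 at 15 min and 5.83 ± 0.17 at 45 min.

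The rise of Nr4a1 from TTX to 45 min was 4.20 ± 0.18 on the log2 scale (limma, ± SE), or 18.4-fold with a 95% interval of 13.9 to 24.4 and an adjusted p of 9.43e-06. By size it was the 8th largest rise among all genes. From 15 to 45 min the rise was 3.75 ± 0.18, or 13.5-fold (interval 10.2 to 17.9, limma adjusted p = 4.97e-05), and no gene had a larger one in that interval. At 15 min the difference from TTX was 0.45 ± 0.18, 1.37-fold with an interval of 1.03 to 1.81, and limma's adjusted p was 0.991 (unadjusted p = 0.0348). On the 3 arrays at 45 min the scanner had taken the Nr4a1 spot from its scan at low gain and scaled it up, which it had not done on the other 6. Within slide 1, which holds 1 array of each group, Nr4a1 at 45 min was 3.80 above TTX, and with slide as a fixed block the rise was 3.89 (adjusted p = 0.00468). Within slide 3, with 2 arrays a group, the rise from 15 to 45 min was 3.84 with an adjusted p of 0.0555, in a fit that called no gene.

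Nr4a2, or Nurr1, is the member required for midbrain dopamine neurons and is also induced by activity in cortex and hippocampus. In TTX its signal was 598, 632 and 981, at 15 min 560, 788 and 1007, and at 45 min 2808, 1684 and 1863. All 3 arrays at 45 min were above all 6 others, with W45 replicate 1 the highest, and the 15 min and TTX arrays overlapped. Its mean log2 level was -1.40 ± 0.13 (SD, n = 3) in TTX, -1.11 ± 0.32 at 15 min and 0.39 ± 0.28 at 45 min.

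Nr4a2 rose from TTX to 45 min by 1.79 ± 0.20 on the log2 scale, 3.45-fold with an interval of 2.53 to 4.72 (limma adjusted p = 0.00782), the 30th largest rise. From 15 to 45 min it rose by 1.49 ± 0.20, 2.81-fold with an interval of 2.06 to 3.85 (limma adjusted p = 0.0271). At 15 min the difference from TTX was 0.29, with an interval from -0.16 to 0.75 and a limma adjusted p of 0.991. The call at 45 min against TTX was lost without TTX replicate 1 (1.73, adjusted p = 0.0564) or TTX replicate 2 (1.77, adjusted p = 0.0550). The call from 15 to 45 min was lost in 13 of 23 alternatives (adjusted p 0.0110 to 0.604 over all 23), among them those without any 1 of TTX replicates 1 to 3 (adjusted p = 0.0669, 0.0805 and 0.0786), W15 replicate 1 (0.115) or 2 (0.147), or W45 replicate 2 (0.109).

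Nr4a3, or Nor1, was read by 3 probes, and the brightest of them, DQ268830, stands for the gene in the test over all genes. Its signal was 10206, 9983 and 15545 in TTX, 10431, 10368 and 13399 at 15 min, and 17992, 16292 and 13364 at 45 min. After scaling, the log2 levels at 45 min were 3.40, 3.48 and 3.08, all above the highest TTX level of 2.73 and the highest 15 min level of 2.91. The group means were 2.62 ± 0.10 (SD, n = 3), 2.79 ± 0.11 and 3.32 ± 0.21.

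The difference of this Nr4a3 probe from TTX was 0.16 at 15 min (interval -0.16 to 0.49, limma adjusted p = 0.991) and 0.70 ± 0.14 at 45 min, or 1.62-fold with an interval of 1.30 to 2.03 (limma adjusted p = 0.219). From 15 to 45 min it was 0.53 ± 0.14 (limma adjusted p = 0.534). With Nr4a3 taken as the mean of its 3 probes, the difference at 45 min was 1.76 and passed the test (adjusted p = 0.0228), as it did in no other alternative (range 0.0228 to 1). With Nr4a3 read by DQ268830, all 3 members had W45 arrays above every TTX array, as 8.36% of all genes did. They were also above every W15 array, as 3.92% were. At 15 min no member, read in this way, had its arrays above every TTX array, against 10.3% of genes. The Nr4a3 probe NM_017352 did have its W15 arrays above every TTX array, while its W45 and W15 arrays overlapped.

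The probe of transcript variant 1, NM_031628, was the only Nr4a3 probe that passed the test. In TTX its signal was 7783, 6148 and 8050, at 15 min 6102, 5159 and 8220, and at 45 min 15074, 16303 and 20566. The 3 arrays at 45 min were above all others, and those at 15 min lay among those of TTX. With each of 30321 probes tested on its own, NM_031628 rose by 1.50 ± 0.20 at 45 min against TTX, 2.83-fold with an interval of 2.08 to 3.86 (limma adjusted p = 0.0216), and by 1.49 ± 0.20 from 15 to 45 min (limma adjusted p = 0.0284). Its difference at 15 min was 0.02, with an interval from -0.43 to 0.46. At this level 3 of the 5 Nr4a probes rose in each of the comparisons at 45 min, against 0.171% of probes over TTX and 0.119% over 15 min, and 0 of 5 did at 15 min, against 0.0198%.

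Among the alternatives, the call of NM_031628 against TTX held in 8 of 20 and that from 15 to 45 min in 6 of 21. With another background correction (normexp) the limma adjusted p was 0.182 and 0.179. With slide as a fixed block the difference from TTX was 1.23 ± 0.32 and was not called. The one against TTX was lost without TTX replicate 1, 2 or 3 (adjusted p = 0.0549, 0.125 and 0.159), W15 replicate 1 (0.0604) or W45 replicate 2 (0.126), and the one from 15 to 45 min without any array other than W45 replicate 1 (0.0502 to 0.167). With the replicate number as a block, which the data bore out as a pairing against TTX, the adjusted p was 0.0724 against TTX and 0.0957 from 15 to 45 min. On slide 1 alone the difference from TTX at 45 min was 0.95.

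The probe of transcript variant 2, NM_017352, had its W15 and W45 arrays above those of TTX, as 10.3% and 8.36% of all genes did. No difference of this probe passed the test. In TTX it was 193, 178 and 360, at 15 min 436, 819 and 826, and at 45 min 691, 1349 and 4562. The W45 arrays spread over a range of several fold, and W45 replicate 1 lay among the 15 min arrays. The mean log2 level was -3.04 ± 0.30 (SD, n = 3) in TTX, -1.30 ± 0.45 at 15 min and 0.04 ± 1.42 at 45 min.

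Against TTX the difference of NM_017352 was 1.74 ± 0.59 at 15 min, 3.33-fold with an interval of 1.33 to 8.33, and 3.07 ± 0.59 at 45 min, 8.42-fold with an interval of 3.37 to 21.1. By size these were the 10th and 13th largest differences upward among all probes, but neither passed the test (limma adjusted p = 0.973 and 0.155). The SE came from a spread shared by all 3 groups. With only the groups compared in the fit, it was 0.25 at 15 min and 0.65 at 45 min. Neither difference passed there (limma adjusted p = 0.320 and 0.469). Without W45 replicate 1 the difference at 45 min was 3.75 with an adjusted p of 0.0138, and over all alternatives the adjusted p ran from 0.0138 to 1. On slide 1 alone, which holds that array, the difference was 2.04 at 15 min and 1.84 at 45 min.

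**Figure D2:**
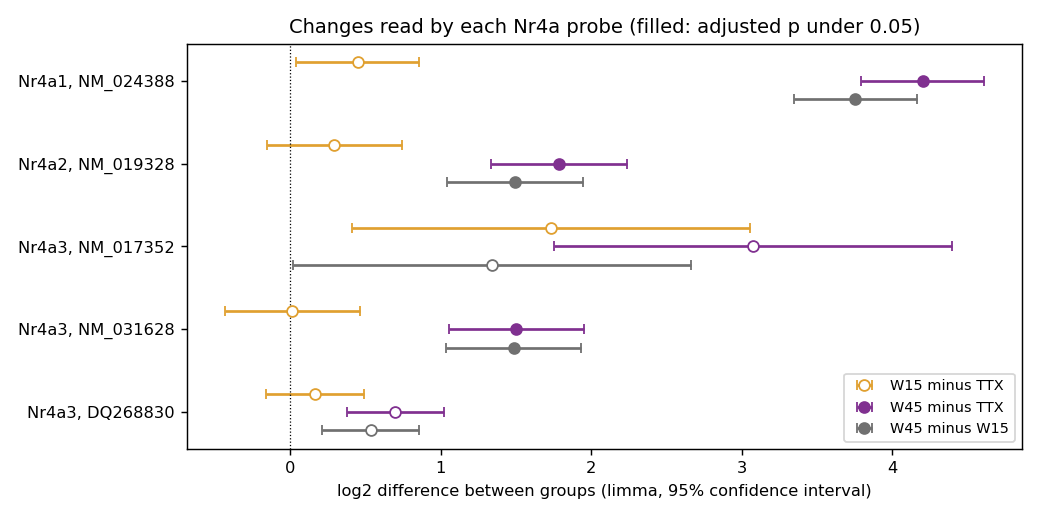
Log2 difference between groups for each Nr4a probe with its 95% confidence interval from limma, in the fit of all 30321 probes (n = 3 arrays per group). Filled points passed an adjusted p under 0.05; they are the changes of Nr4a1, Nr4a2 and NM_031628 at 45 min, and all 5 points at 15 min against TTX are open.

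Whether the probes of Nr4a3 differed from each other was tested on the difference between a pair of probes on each array, by an exact two-sided permutation test of 3 against 3 arrays, which cannot give a p under 0.1. Between TTX and 15 min, NM_017352 gained 1.72 more on the log2 scale than NM_031628 and 1.57 more than DQ268830, with no overlap of the arrays (exact p = 0.1 for both). At 45 min against TTX, NM_031628 gained 0.80 more than DQ268830, again with no overlap (exact p = 0.1), and NM_017352 gained 1.57 more than NM_031628 (exact p = 0.1). From 15 to 45 min the gains of NM_017352 and NM_031628 overlapped, with a difference of -0.15 (exact p = 0.9). Adjusted over the 9 tests of probe pairs, each of those at 0.1 became 0.15.

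Whether the members differed in the size of their change was tested in the same way, and with 6 arrays no difference can reach 0.05. At 45 min against TTX, Nr4a1 gained 2.42 more on the log2 scale than Nr4a2 and 3.50 more than Nr4a3, and Nr4a2 gained 1.09 more than Nr4a3. From 15 to 45 min the corresponding differences were 2.26, 3.22 and 0.96. In these 6 comparisons of members the arrays did not overlap and the exact permutation p was 0.1, the smallest possible, or 0.15 adjusted over 9. At 15 min against TTX the 3 differences were 0.15, 0.28 and 0.13 (exact p = 0.6, 0.3 and 0.4), and the arrays overlapped. With Nr4a3 as the mean of its probes, Nr4a2 and Nr4a3 differed by 0.03 at 45 min (exact p = 1), so their order depends on the probe taken.

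The retinoid X receptors, the partners with which Nr4a1 and Nr4a2 bind DNA, did not pass the test in any comparison. The difference at 45 min from TTX was 0.38 for Rxra (limma adjusted p = 0.765), 0.14 for Rxrb and -0.08 for Rxrg, and at 15 min it was 0.20, 0.30 and -0.09. Among 25 other nuclear receptor genes above background, of 45 listed, 0 were called by limma in any comparison, and 1, 2 and 1 had an unadjusted p under 0.05 at 15 min, at 45 min and between these times. Over all genes 0.0233%, 0.182% and 0.12% were called higher, and 3.5%, 6.43% and 6.67% had an unadjusted p under 0.05, so counts near 0 are also what the background gives for lists of this size. Their differences from TTX at 45 min ran from -0.31 for Nr1d2, a receptor of the clock, to 0.38 for Rxra, with a median of 0.09 against 0.05 over all genes. At 15 min they ran from -0.57 for Nr1d2 to 0.43 for Pgr, the progesterone receptor, with a median of 0.17 against 0.06 over all genes. The other 20 listed receptors were not tested.

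**Figure D3:**
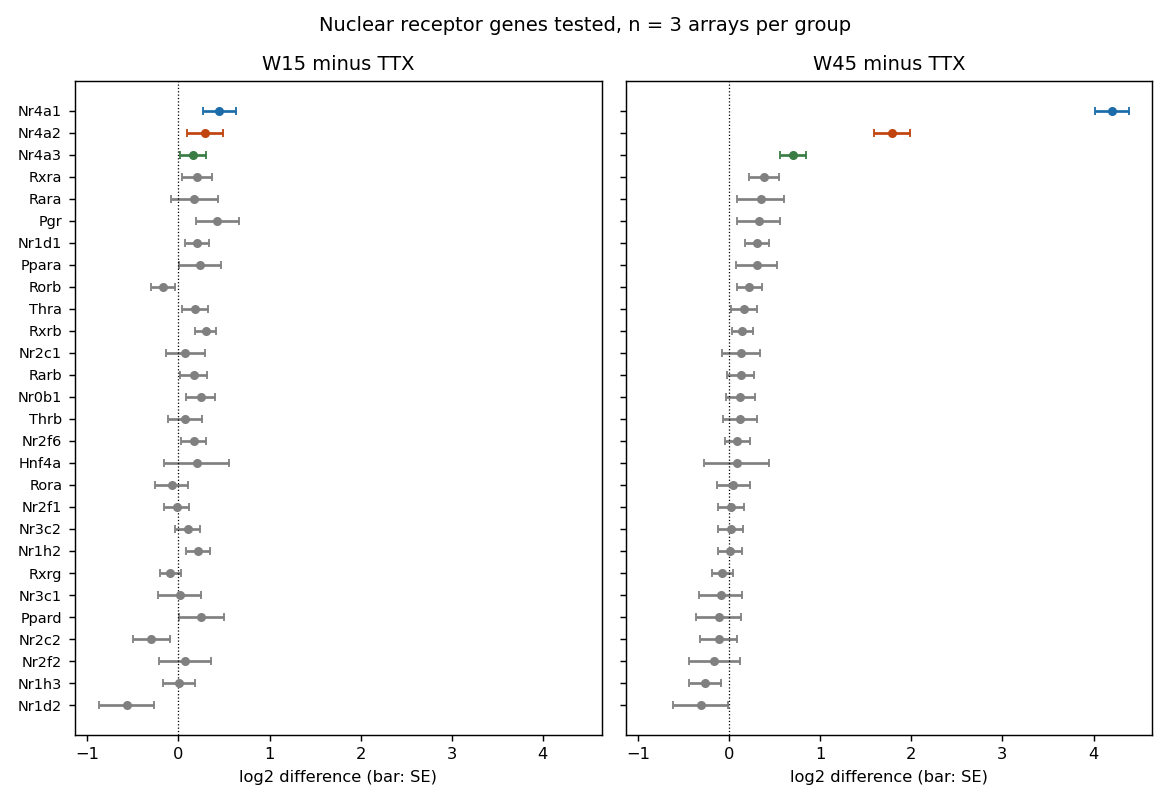
Log2 difference from TTX at 15 min and at 45 min for the 3 Nr4a genes (coloured, Nr4a3 by its brightest probe) and 25 other nuclear receptor genes (grey), with bars for the SE (n = 3 arrays per group). At 45 min Nr4a1 stands at 4.20, Nr4a2 at 1.79 and Nr4a3 at 0.70, and the others lie between -0.31 and 0.38.

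The factors that act on Nr4a genes before any new transcription, such as CREB, MEF2, serum response factor, calcineurin and calcium-dependent kinases, were measured for 28 of 32 listed genes. No probe carried the name of Crtc1, Mef2b, Mef2c or Mrtfb, so these were not measured. By limma 0 of them were called in any comparison, with 0, 2 and 2 at an unadjusted p under 0.05, again near the background shares (at most 0.182% called and 6.67% at that p), and a median at 45 min of 0.10 against 0.05 over all genes. The widest differences at 45 min were -0.66 for Atf1, a relative of CREB (adjusted p = 0.225), and 0.45 for Crem, whose gene also makes a repressor of CREB targets (adjusted p = 0.606). Of the 14 coregulators and binding partners of Nr4a proteins, all were measured and 0 were called by limma, with 1, 2 and 0 at an unadjusted p under 0.05, near the same shares. At 45 min Bcl2, the survival protein that Nr4a1 can bind at mitochondria, was at 0.32.

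Genes known from other cells as targets of Nr4a receptors were measured for 15 of 19. At 45 min 1 of them, Bdnf, was higher than in TTX, by 1.94 (limma adjusted p = 0.00185), against 0.182% of all genes. From 15 to 45 min 2 rose, against 0.12% of all genes: Bdnf by 2.08 (limma adjusted p = 0.00144) and Crh by 1.37 (limma adjusted p = 0.0271). Bdnf encodes a neurotrophin and Crh the hormone that releases corticotropin, and Bdnf is itself induced directly by activity. With slide as a fixed block none of the 15 was called against TTX, so the call of Bdnf was lost there. Against TTX, Crh was at 1.02 at 45 min (limma adjusted p = 0.105), and the count of 2 fell to 1 under quantile or mean scaling, no scaling and normexp correction. Dlk1, at -0.25, and Ddc, an enzyme of dopamine synthesis, at 0.23, had the widest differences of the others at 45 min, and the list's median was 0.11. Th, the gene that Nr4a2 is best known to regulate in dopamine neurons, was at 0.10, and Slc6a3, the dopamine transporter, was not well above background.

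Other transcription factors of the immediate early response are set beside the family here as values only. Of 26 measured, 5 were higher than in TTX at 15 min, where 0.0233% of all genes were higher and 0% lower. At 45 min 13 were higher than in TTX, against 0.182% of all genes, and 8 were higher than at 15 min, against 0.12%. The medians were 0.16, 1.23 and 0.89. With slide as a fixed block the counts against TTX were 0 at 15 min and 8 at 45 min, with normexp correction 2 and 10, and without scaling 5 and 9. Npas4 was not well above background on any TTX array, so its rise is a lower bound: at least 19.5-fold at 15 min and at least 198-fold at 45 min, against the lowest signals well above background on the TTX arrays. Fos was at 4.87 and 6.61, Egr4 at 2.09 and 5.30, Junb at 3.24 and 5.11, Egr2 at 1.14 and 4.24, and Egr1 at 2.12 and 4.20. Npas4 and these 5 rose at 45 min, and Egr2 alone among the 6 was not called at 15 min (limma adjusted p = 0.183). Of those not called at 45 min, Jun, at 1.11, and Fosb, at 0.95, had the widest differences. These comparisons share the TTX arrays with those of the Nr4a genes, and whether any of these genes rose sooner than Nr4a1 was not tested.

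The genes whose levels followed each member most closely were sought among those with a symbol that were called at 45 min against TTX, 36 for Nr4a1 and Nr4a2 and 37 for Nr4a3, by Pearson's r over the 9 arrays. These r values are high by construction, since all the genes compared differ between the same groups, and they are given as a description. Nr4a1 was followed most closely by Otud1, a deubiquitinase (r = 0.994), Ch25h, which makes 25-hydroxycholesterol (0.993), Btg2, an antiproliferative factor of mRNA decay (0.992), and Edn1 and Klf4 (0.988 for both). At 15 min the differences of these 5 from TTX lay between -0.14 (Edn1, not well above background at 15 min) and 0.35 (Ch25h), and at 45 min they stood between 0.99 (Otud1) and 3.33 (Ch25h) above it. Nr4a2 was followed by Egr2 (0.970), Arc, a regulator of synaptic strength (0.968), Ch25h (0.967), Rasl11a and Dusp1 (0.966 for both).

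Nr4a3, by its brightest probe, was followed by Fbxo33, an F-box protein (0.968), Tiparp (0.956), Rasl11a (0.954), Egr2 (0.947) and Ch25h (0.935). Ch25h was on the lists of all 3 members. When likeness was taken as the distance between the levels after subtraction of the TTX mean, which counts the size of the change, the nearest gene was Ccn1 for Nr4a1 (1.23), Dusp5 for Nr4a2 (0.797) and Otud1 for Nr4a3 (0.628). For the probe NM_017352, which the naming rule does not cover, the closest were Fosl2 (r = 0.924) and Egr3 (0.890), at lower values than for any member.

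**Figure D4:**
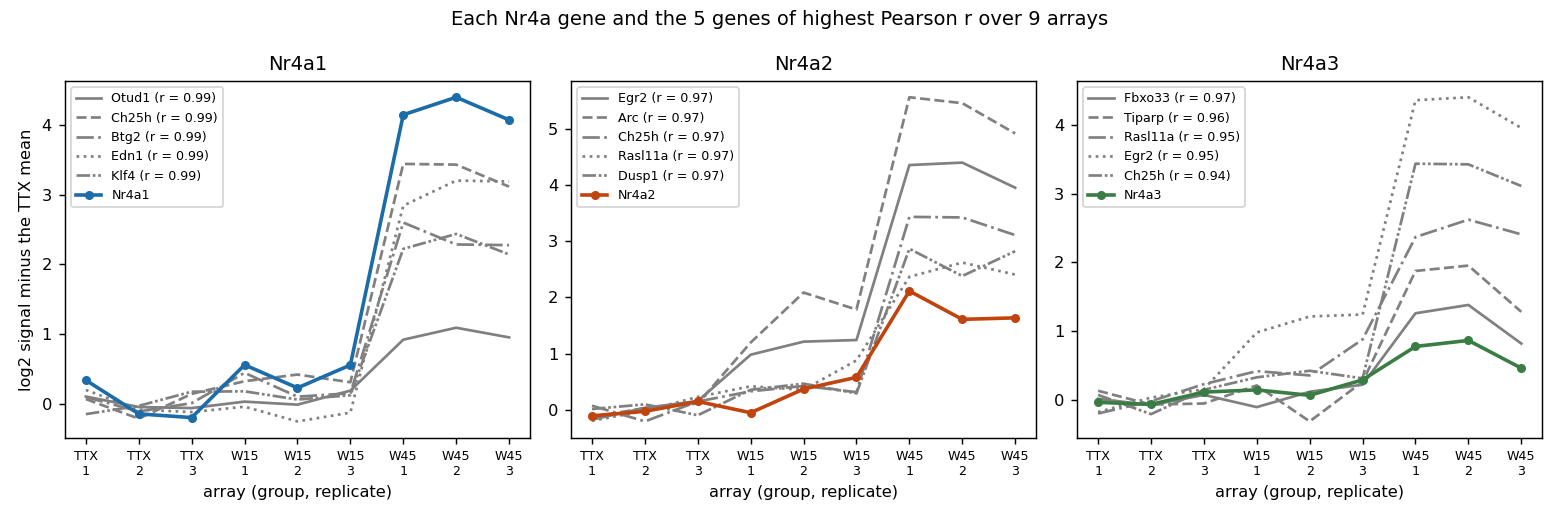
Log2 level on each of the 9 arrays, minus the TTX mean, of each Nr4a gene (coloured) and of the 5 genes with the highest Pearson r to it (grey lines, r in the key); the vertical axes differ between panels and the lines only join arrays. On every line drawn the 3 W45 arrays lie above the other 6, by mean rises over TTX from 0.99 (Otud1) to 5.32 (Arc) among the grey lines.

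Genes measured within 100 kb of the Nr4a probes on build rn3 did not pass the test. Over all probes 0.171% were called higher at 45 min than in TTX, so no call is also what the background gives for 7 probes. Within 100 kb of the Nr4a1 probe, Atg101, 12.8 kb away, differed from TTX at 45 min by 0.05, Tamalin by -0.06 and Acvr1b by -0.16, while 3 unnamed transcripts lay between -0.04 and 0.20. Stx17, whose probe lay 99.97 kb from the DQ268830 probe of Nr4a3, differed by -0.18. No measured probe lay within 100 kb of that of Nr4a2. The lowest limma adjusted p of these 7 neighbours at 45 min was 0.874.

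The summed neuronal markers, on the linear scale relative to the 75th percentile, lay between 119.5 and 143.9 in TTX, 127.8 and 149.3 at 15 min and 116.0 and 146.6 at 45 min. The astrocyte sum lay between 79.5 and 93.0, 81.6 and 90.6, and 72.5 and 96.9, and the microglial sum between 0.329 and 0.391, 0.318 and 0.336, and 0.192 and 0.376. By limma 0 marker genes of neurons, astrocytes, microglia, oligodendrocytes, endothelial cells or dopamine neurons were called in any comparison, with at most 2 of a list at an unadjusted p under 0.05, where the background shares are at most 0.182% and 6.67%. The ranges of the 3 groups overlapped for each of these sums. On the linear scale each sum mostly follows its brightest gene: Tubb3, Slc1a3 and Cd68, with mean log2 levels in TTX of 6.44, 6.08 and -1.94. At 45 min these genes differed from TTX by 0.006, -0.14 and -0.71. The part of cell types in the results was not tested.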

How the data were processed

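Cy3-labelled cRNA from 500 ng of total RNA of each sample was hybridised to single-colour Agilent rat arrays of design 014879. Per the file headers, the deposited values are spot intensities from Feature Extraction 9.5.3.1, which the submitters' processing notes give as 9.5. Its processed signal is a background-corrected intensity. The deposited value table holds the same intensities (largest difference 0). Control spots and outlier spots were left out, spots of a probe were averaged, and log2 signals minus each array's 75th percentile (1456 to 2343) were analysed. Probes that in no group were well above background on all 3 of its arrays were dropped, which left 30321 of 41012. The brightest kept probe stood for a gene. Of the probes, 20905 kept the name in the files, and the rest were named through the RefSeq table of GRCr8 by accession (10726), symbol (5586), synonym (3704) or other accession (91).

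A single limma model (version 3.58.1, R 4.3.3) covered the 9 arrays, with a mean per group, a two-sided moderated test and Benjamini-Hochberg adjustment over all genes; the script was tested on simulated data. Pairs of members were compared with exact permutation tests. Deviations of equal replicate numbers correlated at 0.225 to 0.388 (W15 and TTX) and 0.122 to 0.367 (W45 and TTX). The numbers were therefore taken to pair these samples, from the data alone. Between W45 and W15 they correlated at 0.0627 to 0.183, and each W45 array correlated best with the W15 array of its own number. The main model and the permutation tests did not use this pairing. With the replicate number as a block in limma, the calls of NM_031628 (adjusted p = 0.0724 and 0.0957) and of Nr4a2 from 15 to 45 min (0.101) were lost. The members and the gene lists were chosen with earlier results of these data known. The text names all 3 members with every probe, Rxra, Rxrb and Rxrg, up to 6 called members of each other list and the 2 with the widest differences not called, and the 5 genes of highest Pearson r with each member; 1 gene that the rule covers is not reported here. The neighbours of the members, the genes nearest by distance and the genes most like NM_017352 lie outside that rule and were chosen after their values were seen. Alternatives changed the scaling, background correction, filter, probe rule, prior, samples, slide and replicate block and left out each array. Sequences are from the array files and RefSeq. Plots were made in Python 3.11.15 with matplotlib 3.10.9.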

Additional observations from a re-analysis of the deposited data

How the results depend on the processing

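Over its alternatives Nr4a1 stayed called at 45 min against TTX in 22 of 22 and against 15 min in 22 of 23 (slide 3 alone, 3.84), Nr4a2 against TTX in 18 of 22 and against 15 min in 10 of 23, and no alternative called a member at 15 min. In what follows the values are log2 differences. Nr4a2 against TTX at 45 min missed the threshold without scaling (1.52) and with normexp correction (1.45). Nr4a2 from 15 to 45 min missed it with scaling to the mean of all probes (1.44), no scaling (1.44), normexp (1.07), no filter, only the groups compared or the replicate block (1.49 each, block adjusted p = 0.101), and slide 3 alone (1.47). NM_031628 against TTX at 45 min missed it with mean scaling (1.37), no scaling (1.24), normexp (1.25), no filter, only the groups compared or the replicate block (1.50 each), and slide as a fixed block (1.23). From 15 to 45 min it missed it with mean scaling (1.43), normexp (1.30), no filter, only the groups compared, slide as a fixed block or the replicate block (1.49 each, replicate block adjusted p = 0.0957), and slide 3 alone (1.76). Nr4a3 as the mean of its probes passed (1.76).

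Directions at 15 min against TTX turned for NM_031628 with quantile scaling (-0.0035), mean scaling (-0.061), no scaling (-0.19), normexp (-0.046) and slide as a fixed block (-0.26), and for Nr4a3 without scaling (-0.043). The difference in gain at 15 min turned for Nr4a1 against Nr4a3 (-0.19) and Nr4a2 against Nr4a3 (-0.34) with the mean of the probes, and for Nr4a1 against Nr4a2 (-0.36) and Nr4a1 against Nr4a3 (-0.031) with normexp. The median of all genes against TTX at 15 and 45 min was -0.15 and -0.21 without scaling and 0.21 and 0.13 with normexp. On slide 1 alone, with 1 array a group and no test, the differences from TTX at 15 min were 0.22 for Nr4a1, 0.69 for Nr4a2 and 0.33 for Nr4a3. At 45 min there they were 3.80 for Nr4a1, 2.23 for Nr4a2, 1.84 for NM_017352 and 0.95 for NM_031628, and from 15 to 45 min -0.20 and 0.94 for these 2 probes.

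Leaving out 1 array gave, for 15 min, 45 min and 45 against 15 min, 0.35 to 0.62, 4.10 to 4.37 and 3.64 to 3.82 for Nr4a1, 0.15 to 0.47, 1.62 to 1.88 and 1.32 to 1.63 for Nr4a2, and 0.10 to 0.22, 0.62 to 0.82 and 0.45 to 0.65 for Nr4a3. For NM_017352 it gave 1.57 to 1.99, 2.33 to 3.75 and 0.59 to 2.01, and for NM_031628 -0.11 to 0.16, 1.37 to 1.65 and 1.35 to 1.64. The gain of Nr4a1 over Nr4a2 at 15 min ran from -0.077 to 0.38. The 47 genes higher at 45 min than in TTX became 27 without scaling, 25 with normexp, 30 with only the groups compared, 19 with slide as a fixed block (48 as a random block), and 27 to 70 with 1 array left out, where the 5 lower became 92 without W45 replicate 1. The 31 higher at 45 than at 15 min became 15 with normexp, 19 without the filter or with only the groups compared, 0 on slide 3 alone and 18 to 57 with 1 array left out, where the 3 lower became 128 without W45 replicate 1. The replicate block changed no other call of a member and gave 41 and 24 in place of the 47 and 31. Between W45 and W15 as well, each W45 array correlated best with the W15 array of its own number. The cause of these changes was not tested. The 3 arrays a group, TTX confounded in part with slide, and signal over background limit the small differences at 15 min.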
